A study of Rattus norvegicus with 20 samples.

Results

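Genes of the brown adipocyte heat programme were examined in the mesenteric artery, the vessel bed that supplies the intestine, of 20 rats. The set held 10 genes: Ucp1, Cidea, Ppargc1a, Dio2, Elovl3, Cox7a1, Cox8b, Prdm16, Zic1 and Ucp3. Every array probe whose gene name equals one of these was taken, whatever its values. This gave 9 of 30367 probes, for 8 of the 10 genes, with 2 probes for Cidea and 1 for each of the others. No probe carried the name Cox7a1 or Prdm16, and neither gene was analysed under its name. LOC687508, whose gene number is that of Cox7a1 in RefSeq, is described below outside the rule.

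Total RNA of whole mesenteric artery was labelled with 1 dye and hybridised to Agilent arrays of 60-base probes, 1 sample per array, in 5 groups of 4 arrays that the labels call biological replicates. SHRSP/Izm (stroke-prone) and SHR/Izm are inbred strains with inherited hypertension and were not operated. The 1K1C and 2K1C groups are WKY/Izm rats, a normotensive strain, with a clip on a renal artery: 1K1C rats keep 1 kidney and 2K1C rats keep 2 kidneys. The reference for these 4 groups is untreated WKY/Izm, without operation, and no sham-operated group was analysed. All rats are labelled as 6 weeks old, and the 3 WKY groups as treated or left untreated for 3 weeks; the labels do not settle whether 6 weeks is the age at operation or at sampling. No blood pressure was examined here.

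Brown adipocytes burn fatty acids to make heat. Noradrenaline from sympathetic nerves acts on beta-adrenergic receptors and cyclic AMP, which releases fatty acids and switches on transcription of Ucp1 through coactivators such as the product of Ppargc1a. Fat around rodent arteries can hold brown-like as well as white adipocytes, and the fat around the mesenteric arteries is known as mostly white.

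The probes behind the results on Ucp1, Cidea and Ppargc1a are shown here because the range of Ucp1, the paired Cidea probes and the call of Ppargc1a rest on them. They are printed in lower case throughout, since no stretch is singled out. The Ucp1 probe (rn4 chr19:26527687-26527746, minus strand) and the Ppargc1a probe (rn4 chr14:64365667-64365726, plus strand) each lie in 1 block. The 60 bases of this Cidea probe span 7315 bases of rn4 (chr18:63888076-63895390, plus strand), so the probe lies across an intron. The files give mRNA accessions for all 3, and in each probe 1 of the 3 forward reading frames runs through without a stop codon. The array design does not annotate coding sequence or untranslated region.
Ucp1 probe: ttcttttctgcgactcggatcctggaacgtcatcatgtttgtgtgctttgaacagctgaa
Cidea probe A_43_P22556: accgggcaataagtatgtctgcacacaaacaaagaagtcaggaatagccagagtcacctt
Ppargc1a probe: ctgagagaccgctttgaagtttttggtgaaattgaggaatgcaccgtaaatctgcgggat

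The 250 bases before the transcription start are shown for Ucp1 and Cox8b, which moved together across the arrays, and for Ppargc1a, which was called (RefSeq, build GRCr8; 7 of the 8 genes on the array had an entry). Capitals mark TATAAA, the cyclic AMP response element TGACGTCA and its shorter form TGACG, searched on both strands; TGACG lies within TGACGTCA. The windows are chr19:41721422-41721671 (minus strand) for Ucp1, chr1:205408274-205408523 (minus strand) for Cox8b and chr14:63634058-63634307 (plus strand) for Ppargc1a.
Ucp1 promoter: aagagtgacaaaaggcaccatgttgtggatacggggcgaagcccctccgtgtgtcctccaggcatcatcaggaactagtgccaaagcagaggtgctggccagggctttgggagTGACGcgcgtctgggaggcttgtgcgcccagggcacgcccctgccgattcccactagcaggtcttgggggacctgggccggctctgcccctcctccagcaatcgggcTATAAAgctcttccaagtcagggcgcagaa
Cox8b promoter: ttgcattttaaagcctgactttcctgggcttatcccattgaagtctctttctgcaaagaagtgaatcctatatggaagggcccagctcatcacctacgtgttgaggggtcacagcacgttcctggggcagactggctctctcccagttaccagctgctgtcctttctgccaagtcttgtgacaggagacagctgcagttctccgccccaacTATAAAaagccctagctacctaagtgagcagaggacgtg
Ppargc1a promoter: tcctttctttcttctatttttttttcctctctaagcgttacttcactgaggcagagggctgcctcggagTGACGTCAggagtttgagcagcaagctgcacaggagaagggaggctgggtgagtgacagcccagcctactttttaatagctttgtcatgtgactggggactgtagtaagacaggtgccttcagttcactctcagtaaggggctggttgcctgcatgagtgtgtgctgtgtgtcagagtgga
The Ucp1 window held TATAAA at -30 and TGACG at -137 from the start, the Cox8b window held TATAAA at -39, and the Ppargc1a window held the full TGACGTCA at -181. Of 33469 promoter windows of the same length in the table, 12.9% held TATAAA, 18.2% held TGACG and 1.59% held TGACGTCA. These matches describe the letters only. The hormone receptor site AGGTCA was searched too and has no match in these 3 windows, and 14.1% of all windows held it.

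Each level below is log2 of the processed signal minus the 75th percentile of its array, so a level of 0 is the signal at that percentile and levels compare arrays for the same probe only. Between 66.5% and 71.7% of spots per array were well above background, 18899 probes were tested, and arrays of the same group correlated at 0.936 to 0.995. To be tested, a probe had to exceed background clearly, by the scanner software's own call, throughout at least 1 group. The artery label was checked against 10 smooth muscle and 10 endothelial markers. All 20 were well above background on every array except 1K1C replicate 2, where 9 of 10 smooth muscle markers were and where the mean level of that list was -0.17, against 1.89 to 4.17 on the other arrays. The samples also held fat: 28 of 28 measured white adipocyte markers, Adipoq and Lep among them, were well above background on all 20 arrays. The 2K1C arrays lay on slide 1, the 1K1C and untreated WKY arrays on slide 2, and the SHR and SHRSP arrays on slide 3, so among the comparisons below only SHRSP against SHR and 1K1C against untreated WKY lie within a slide, and in the others group and slide cannot be told apart. In whole tissue, fewer cells of a type and less RNA per cell cannot be told apart.

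Of the 9 probes, 6 passed the filter, for 5 genes: Ucp1, Cox8b, Ucp3, Ppargc1a and Cidea with both probes. Ucp1 passed only through 1K1C and Ppargc1a only through untreated WKY, the group in which each had its highest mean. The probes of Dio2, Elovl3 and Zic1 did not pass.

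Ucp1 encodes the uncoupling protein that lets protons back across the inner mitochondrial membrane and so releases heat. Its level was -5.20, -7.27, -5.97 and -4.80 in SHRSP replicates 1 to 4 and -3.63, -2.67, -6.03 and -0.88 in SHR. It was -3.50, -3.19, 3.09 and -2.68 in 1K1C, -7.07, -4.35, -2.99 and -3.34 in 2K1C, and 6.43, -4.39, -7.68 and -7.23 in untreated WKY. A pair of arrays stood far above all others, untreated WKY replicate 1 and 1K1C replicate 3. The groups overlapped in each of the 6 comparisons below. All SHRSP arrays lay below all 1K1C arrays, and these groups were not compared here. Ucp1 was well above background on 14 of 20 arrays, and on only 2 of 4 in SHRSP and in untreated WKY.

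The lowest Ucp1 levels were not well above background, so its range is a lower bound. With such values raised to the lowest signal well above background on their array, a setting chosen after seeing the data, Ucp1 was at least 5647-fold higher (12.46 on the log2 scale) on the highest array than on the lowest. That range ranked 1 of 18899 probes and the SD within groups, 3.22, ranked 2; with the levels as measured the SD was 3.54 and ranked 1. As measured, the median probe had a range of 1.31 and a within-group SD of 0.31. Untreated WKY replicate 1 lay 10.82 (1813-fold) above the next WKY array and 1K1C replicate 3 lay 5.77 (54.6-fold) above the next 1K1C array. The within-group SD of Ucp1 was larger than its difference in any of the 6 comparisons.

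Cox8b encodes a subunit of cytochrome c oxidase that in rodents is found in heart, skeletal muscle and brown fat. Its level was -4.96, -5.24, -4.94 and -4.22 in SHRSP and -4.06, -3.72, -5.02 and -2.01 in SHR. It was -3.41, -3.67, 1.60 and -3.00 in 1K1C, -4.47, -3.40, -2.88 and -3.48 in 2K1C, and 4.90, -4.00, -5.15 and -5.38 in untreated WKY. The same 2 arrays stood out, replicate 1 of untreated WKY by 8.91 and replicate 3 of 1K1C by 4.60 over the next array of their group. Cox8b was well above background on 19 of 20 arrays, and its range of 10.29 and its within-group SD of 2.55 both ranked 20 of 18899 as measured, or 8 and 11 with dim values raised as for Ucp1.

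Across the 20 arrays, Ucp1 and Cox8b rose and fell together (Pearson r = 0.966, Spearman rho = 0.925, permutation p = 1e-05 for each, the smallest these permutations can give, and 7.5e-05 adjusted over 15 pairs of member probes). Without untreated WKY replicate 1 and 1K1C replicate 3, the 2 arrays farthest from the median of Ucp1, r was 0.918. It was 0.984 over the 8 arrays of slide 2 and 0.954 over the 8 arrays of slide 3; slide 1 holds 4 arrays of 1 group and gives no value. With each group mean subtracted, r was 0.978.

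**Figure D1:**
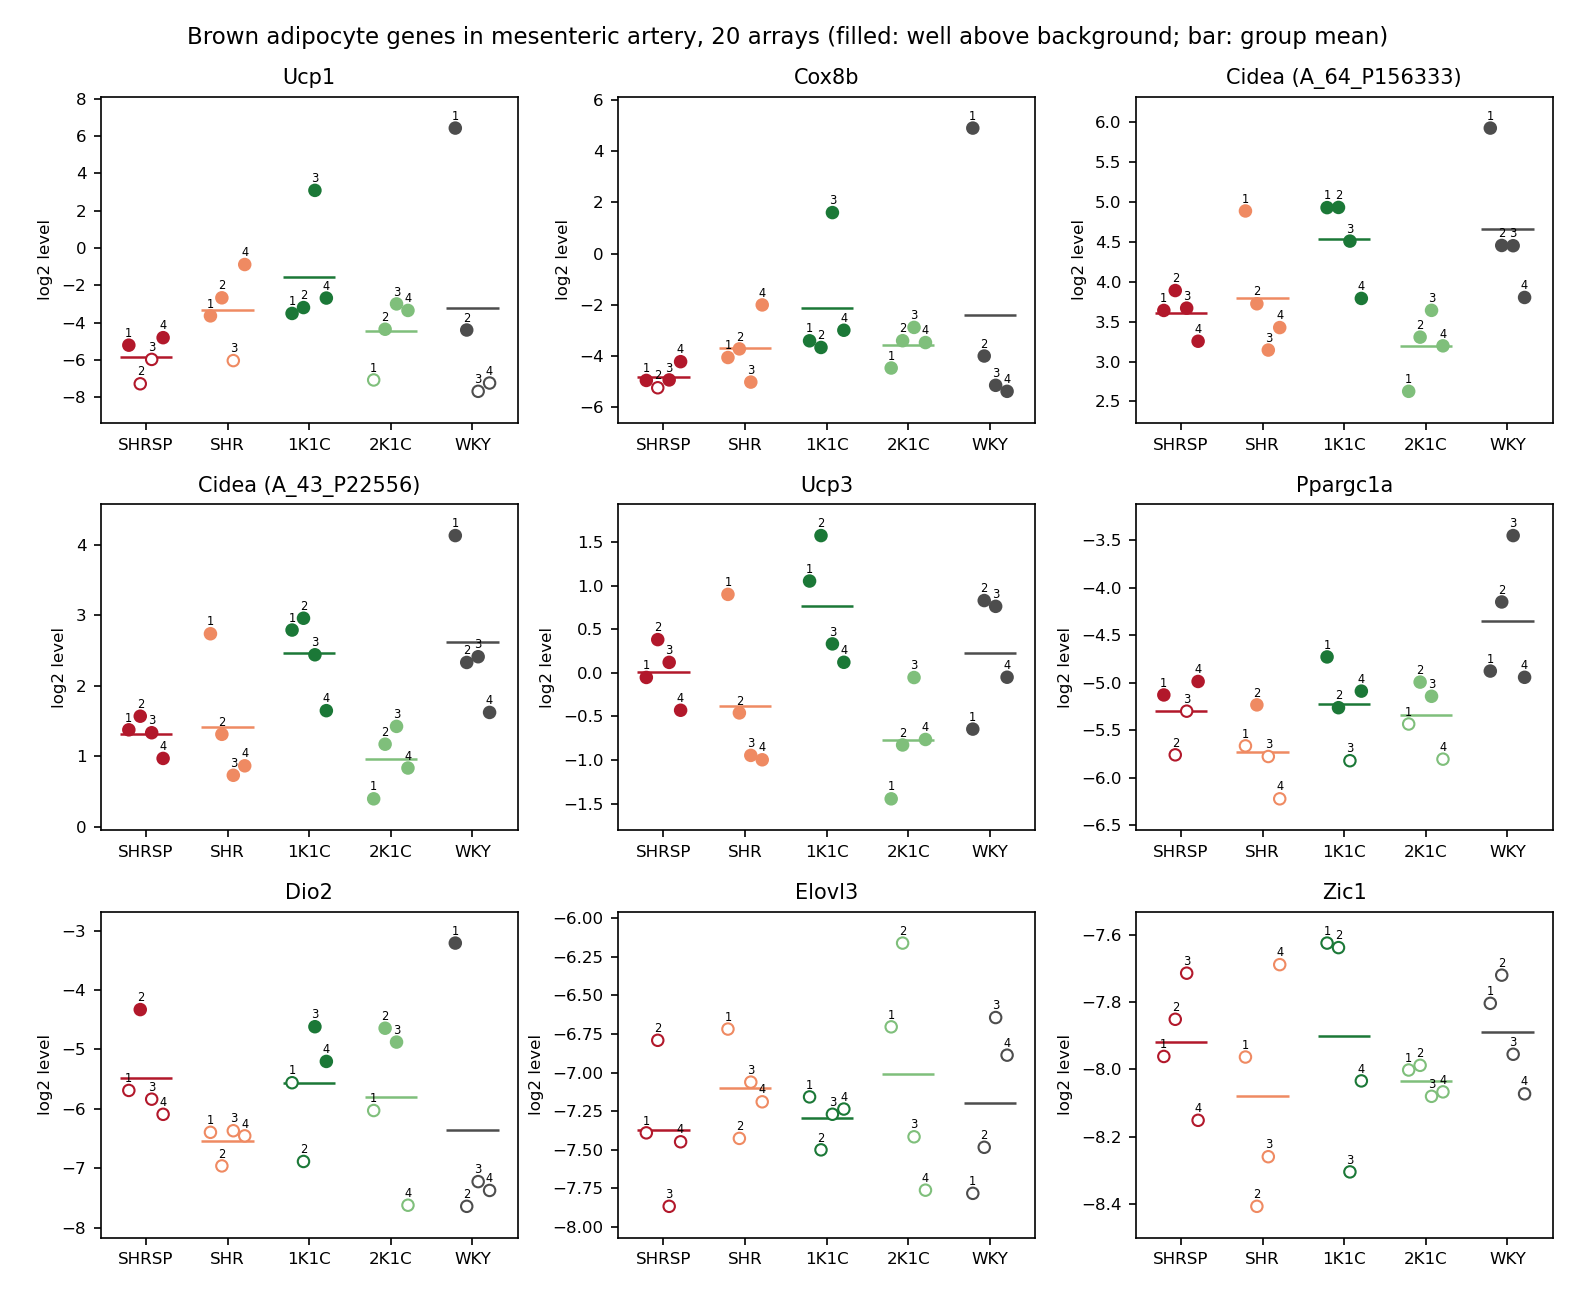
Log2 level (signal relative to the array's 75th percentile) of the 9 probes on each of 20 arrays, with a panel per probe and the 5 groups on the x axis; points are arrays numbered by replicate, filled where well above background, and bars are group means of 4. Ucp1 reached 6.43 on untreated WKY replicate 1 and 3.09 on 1K1C replicate 3, Cox8b stood out on the same arrays, and Elovl3 and Zic1 have no filled point.

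Of 18899 probes, 3 lay at least 2 on the log2 scale above the other 3 arrays of the group in 1K1C replicate 3. These were Ucp1, Cox8b and Wisp2, a CCN family gene, the last by 2.16. Such low counts occurred elsewhere too, with 0 in SHR replicate 2 and 1 in SHR replicate 3. High counts were 286 in 2K1C replicate 4 (1.51% of all), 210 in SHRSP replicate 4 (1.11%) and 211 in untreated WKY replicate 1 (1.12%). The largest gaps of untreated WKY replicate 1 were those of Ucp1, of Slc6a2 (9.08), the noradrenaline transporter, of Cox8b, and of Th (6.42) and Npy (6.09), 2 genes of sympathetic neurons. Wisp2 and these neuronal genes were chosen after their values were seen. All 9 measured neuron markers of 15 listed, and all 10 measured pancreas markers, had their highest WKY level on replicate 1, against 30.3% of all probes. The mean level of the neuron list was 4.77 there and -1.57 to 0.70 on the other WKY arrays, while in 1K1C replicate 3 it was -1.38, the highest of the 1K1C arrays. None of the 28 white adipocyte markers was highest of the WKY arrays in replicate 1, whose list mean of 2.35 was the lowest of its group. Over the 20 arrays, the mean of the neuron list correlated with Ucp1 at 0.387 (rho = -0.20, permutation p = 0.0864 and 0.397, adjusted 0.216 and 0.661) and with Cox8b at 0.563 (rho = -0.07, permutation p = 0.0475 and 0.758, adjusted 0.142 and 0.758, over 15 relations of members to lists). Both relations rested on these 2 arrays: without them r was -0.52 for Ucp1 and -0.29 for Cox8b. It was 0.542 and 0.648 within slide 2 and -0.27 and -0.13 within slide 3. The mean of the pancreas list was 0.88 in untreated WKY replicate 1 and -6.30 to -1.20 on the other WKY arrays, and its part in the Ucp1 and Cox8b levels was not tested.

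A probe outside the rule, LOC687508, is described in the files as similar to cytochrome c oxidase subunit 7A1, and RefSeq gives its gene number as Cox7a1. This probe, chosen after the names were read, was well above background on all 20 arrays. It ranged over 3.03 on the log2 scale, with its highest level, -1.07, in untreated WKY replicate 1. In 1K1C replicate 3 it was at -3.02, below 1K1C replicate 4 at -2.25. None of its 6 differences was called.

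Cidea encodes a lipid droplet protein found in brown and, in part, in white adipocytes. On probe A_64_P156333 its level was 3.64, 3.89, 3.67 and 3.25 in SHRSP and 4.89, 3.72, 3.14 and 3.43 in SHR. It was 4.93, 4.93, 4.51 and 3.79 in 1K1C, 2.63, 3.31, 3.64 and 3.20 in 2K1C, and 5.92, 4.45, 4.45 and 3.80 in untreated WKY. The 2K1C arrays all lay below the 1K1C and the untreated WKY arrays, and SHR replicate 1 stood above the rest of its group. Both Cidea probes were well above background on all 20 arrays and correlated at 0.993. With Ucp3, this Cidea probe correlated at 0.650 (rho = 0.785, permutation p = 0.00189 and 9e-05, adjusted 0.00821 and 0.000337), at 0.937 without the 2 farthest arrays, 1K1C replicate 2 and untreated WKY replicate 1, at -0.09 within slide 2 and at 0.864 within slide 3.

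On the other probe, A_43_P22556, Cidea averaged 1.31 ± 0.25 in SHRSP, 1.41 ± 0.92 in SHR, 2.46 ± 0.58 in 1K1C, 0.96 ± 0.44 in 2K1C and 2.62 ± 1.06 in untreated WKY (SD, n = 4 each). From low to high, the means of A_64_P156333 ran 2K1C, SHRSP, SHR, 1K1C and untreated WKY, and each step in that order was smaller than the larger SD of the 2 groups it joins.

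Ucp3 encodes an uncoupling protein of muscle and fat whose role in heat production is not settled. Its level was -0.05, 0.38, 0.12 and -0.43 in SHRSP and 0.90, -0.46, -0.95 and -0.998 in SHR. It was 1.05, 1.58, 0.33 and 0.12 in 1K1C, -1.45, -0.83, -0.05 and -0.76 in 2K1C, and -0.65, 0.83, 0.76 and -0.05 in untreated WKY. All 1K1C arrays lay above all 2K1C arrays, and untreated WKY replicate 1, the highest array for Ucp1, was the lowest of its group for Ucp3. Ucp3 was well above background on all 20 arrays. From low to high, its means ran 2K1C, SHR, SHRSP, untreated WKY and 1K1C, with each step smaller than the larger SD of its 2 groups.

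Ppargc1a encodes PGC-1alpha, a coactivator that drives mitochondrial biogenesis and Ucp1 transcription. Its level was -5.13, -5.76, -5.30 and -4.99 in SHRSP and -5.67, -5.23, -5.78 and -6.22 in SHR. It was -4.73, -5.26, -5.82 and -5.09 in 1K1C, -5.44, -4.99, -5.14 and -5.81 in 2K1C, and -4.88, -4.15, -3.45 and -4.94 in untreated WKY. Untreated WKY replicates 2 and 3 were the highest arrays, and all SHRSP, SHR and 2K1C arrays lay below all WKY arrays. Ppargc1a was well above background on 12 of 20 arrays: 2 of 4 in SHRSP, 1 in SHR, 3 in 1K1C, 2 in 2K1C and 4 in untreated WKY. In SHR the lowest signal that counts as well above background averaged -5.99. Most levels outside WKY lay close to that limit.

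Dio2 encodes the deiodinase that makes active thyroid hormone within the cell, and its probe was well above background on 6 of 20 arrays. Its level was -5.69, -4.33, -5.84 and -6.09 in SHRSP and -6.40, -6.96, -6.37 and -6.46 in SHR. It was -5.56, -6.89, -4.62 and -5.20 in 1K1C, -6.03, -4.64, -4.88 and -7.62 in 2K1C, and -3.21, -7.64, -7.23 and -7.37 in untreated WKY. The highest value again was untreated WKY replicate 1, and in 1K1C the highest was replicate 3. Elovl3, a fatty acid elongase, ranged between -7.87 and -6.16 and on no array exceeded background by that call. Zic1, a transcription factor that marks classical brown adipocytes in the mouse, ranged between -8.41 and -7.62 and likewise was not detected on any array, also not on the 2 arrays where Ucp1 was high.

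In SHR against untreated WKY, Ppargc1a fell, and it was the only member called in any comparison. Its mean was -5.73 ± 0.41 in SHR and -4.36 ± 0.70 in untreated WKY (SD, n = 4 each), a difference of -1.37 ± 0.32 (SE; limma, Benjamini-Hochberg adjusted p = 0.0344 over all 18899 probes), and the groups did not overlap. Only 1 of 4 SHR arrays had it well above background, against 4 of 4 in untreated WKY, so the level in SHR is poorly measured. The probe also entered the test only through the high untreated WKY group; over all probes without a filter the adjusted p was 0.0465. That 1 call among 6 tested probes stands beside 1.72% of all probes called, 0.947% called lower, and 6.16% of probes whose groups did not overlap. The call was lost without untreated WKY replicate 2 (adjusted p = 0.0921) or 3 (0.128), without SHR replicate 3 (0.0988) or 4 (0.126), with quantile normalization (0.0560), with normexp (0.0761), from the deposited values without scaling (0.0983) and when the other 3 groups were left out (0.218). It held without untreated WKY replicate 1 and 1K1C replicate 3, at -1.54 (adjusted p = 0.0238). In untreated WKY replicates 2 and 3, the mean of the mesothelium list (6 measured of 10 markers) was -0.71 and -1.71, against -4.03 and -3.78 in replicates 1 and 4; in SHR it was -0.39 in replicate 1 and -4.32 to -3.92 in the others. The part of mesothelial RNA in the Ppargc1a level was not tested. The other probes were not called: the differences were -1.21 ± 0.47 for Cidea on A_43_P22556 (adjusted p = 0.242), -0.86 ± 0.41 on A_64_P156333 (0.363), -0.60 ± 0.44 for Ucp3 (0.588), -1.30 ± 1.67 for Cox8b (0.768) and -0.09 ± 2.31 for Ucp1 (0.992). Over the 9 probes the median difference was -0.60, beside 0.02 over all tested probes. Here and below, the 9 probes include those of Dio2, Elovl3 and Zic1, which were not tested, and both of Cidea, so the sets are unlike.

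In SHRSP, SHR and 2K1C, the direction of Ucp1 and Cox8b against untreated WKY turned without replicate 1 of untreated WKY. In 1K1C it did not turn without that array. Other single arrays turned some directions too. Ucp1 in SHR became 0.03 without SHR replicate 1 and 0.82 without SHR replicate 3. Cox8b in 1K1C became -0.95 without 1K1C replicate 3, and -0.24, -0.62 and -0.70 without untreated WKY replicates 2, 3 and 4. Without untreated WKY replicate 1 and 1K1C replicate 3, Ucp1 differed by 3.13 in SHR (adjusted p = 0.234), 0.62 in SHRSP (0.848) and 2.00 in 2K1C (0.313), each above 0, and by 3.31 in 1K1C (0.465). Of the WKY arrays left, replicates 3 and 4 were not well above background for Ucp1, so the sizes of these Ucp1 differences are poorly measured. Cox8b then differed by 1.14, 0.00, 1.28 and 1.49 in these 4 groups, and none was called. With all arrays the differences of Ucp1 were -2.59 ± 2.31 in SHRSP, 1.65 ± 2.31 in 1K1C and -1.22 ± 2.31 in 2K1C, and those of Cox8b were -2.43 ± 1.67, 0.29 ± 1.67 and -1.15 ± 1.67. All 4 comparisons share the untreated WKY arrays.

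In SHRSP against untreated WKY, 0 of 6 tested probes were called, beside 2.4% of all probes, and 3 of 6 had an unadjusted p under 0.05, beside 16.8%. Ppargc1a differed by -0.94 ± 0.32 (adjusted p = 0.138), Cidea by -1.31 ± 0.47 (0.169) and -1.04 ± 0.41 (0.210) on its 2 probes, and Ucp3 by -0.22 ± 0.44. Ppargc1a and the Cidea probe A_43_P22556 were apart between the groups, 2 of 6 beside 11.4% of all probes. The 6 probes stand for 5 genes, with Cidea counted on both its probes. Ppargc1a entered the test only through the high untreated WKY group and was well above background on 2 of 4 SHRSP arrays. Over the 9 probes the median difference was -0.94, beside 0.00 over all tested probes.

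In 2K1C against untreated WKY, 0 of 6 were called, beside 0.0106% of all probes, and 4 of 6 had an unadjusted p under 0.05, beside 21.9%. The differences were -1.67 ± 0.47 and -1.46 ± 0.41 for Cidea (adjusted p = 0.110 and 0.109), -0.99 ± 0.32 for Ppargc1a (0.126) and -0.998 ± 0.44 for Ucp3 (0.199). Ppargc1a and both Cidea probes were apart between the groups, 3 of 6 beside 7.91%. The 6 probes stand for 5 genes, with Cidea counted on both its probes. Ppargc1a entered the test only through the high untreated WKY group and was well above background on 2 of 4 2K1C arrays. Without untreated WKY replicate 4, Ppargc1a and both Cidea probes were called (adjusted p = 0.0471, 0.0308 and 0.0304), when 975 of all probes were. The median difference over the 9 probes was -0.998, beside 0.04 over all tested probes.

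In 1K1C against untreated WKY, within slide 2, 0 of 6 were called, beside 0.0% of all probes, and 1 of 6 had an unadjusted p under 0.05, beside 9.03%. Ppargc1a differed by -0.87 ± 0.32 (adjusted p = 0.372), Ucp3 by 0.55 ± 0.44 (0.691), and Cidea by -0.16 ± 0.47 and -0.12 ± 0.41 (0.920 and 0.937). No tested member was apart between the groups, beside 3.75% of probes. The direction of Cidea turned without untreated WKY replicate 1, at 0.34 and 0.30, and without 1K1C replicate 4, at 0.11 and 0.13.

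In SHRSP against SHR, within slide 3, 0 of 6 were called, beside 0.36% of all probes, and 0 of 6 had an unadjusted p under 0.05, beside 3.61%. Ucp1 differed by -2.51 ± 2.31, Cox8b by -1.14 ± 1.67, Ppargc1a by 0.43 ± 0.32, Ucp3 by 0.38 ± 0.44 and Cidea by -0.10 ± 0.47 and -0.18 ± 0.41. Of the 9 probes only that of Dio2, below the filter, was apart, at -5.49 ± 0.79 in SHRSP and -6.55 ± 0.28 in SHR (SD, n = 4 each), with 1 of 4 SHRSP arrays and 0 of 4 SHR arrays well above background; among tested probes 3.49% were apart.

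In 1K1C against 2K1C, 0 of 6 were called, beside 0.0% of all probes, and 3 of 6 had an unadjusted p under 0.05, beside 21.1%. Ucp3 was 1.54 ± 0.44 higher in 1K1C (0.77 ± 0.67 in 1K1C and -0.77 ± 0.57 in 2K1C, SD, n = 4 each; adjusted p = 0.0777), and Cidea differed by 1.502 ± 0.47 and 1.35 ± 0.41 (0.0929 and 0.0878). These 3 probes, which stand for the genes Ucp3 and Cidea, were apart between the groups, beside 9.55% of all. They were called without 1K1C replicate 4 (adjusted p = 0.0266 for Ucp3, 0.0340 and 0.0289 for Cidea), when 2030 probes were. Ucp1 differed by 2.87 ± 2.31, Cox8b by 1.44 ± 1.67 and Ppargc1a by 0.12 ± 0.32. The median over the 9 probes was 1.35, beside 0.01 over all tested probes.

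**Figure D2:**
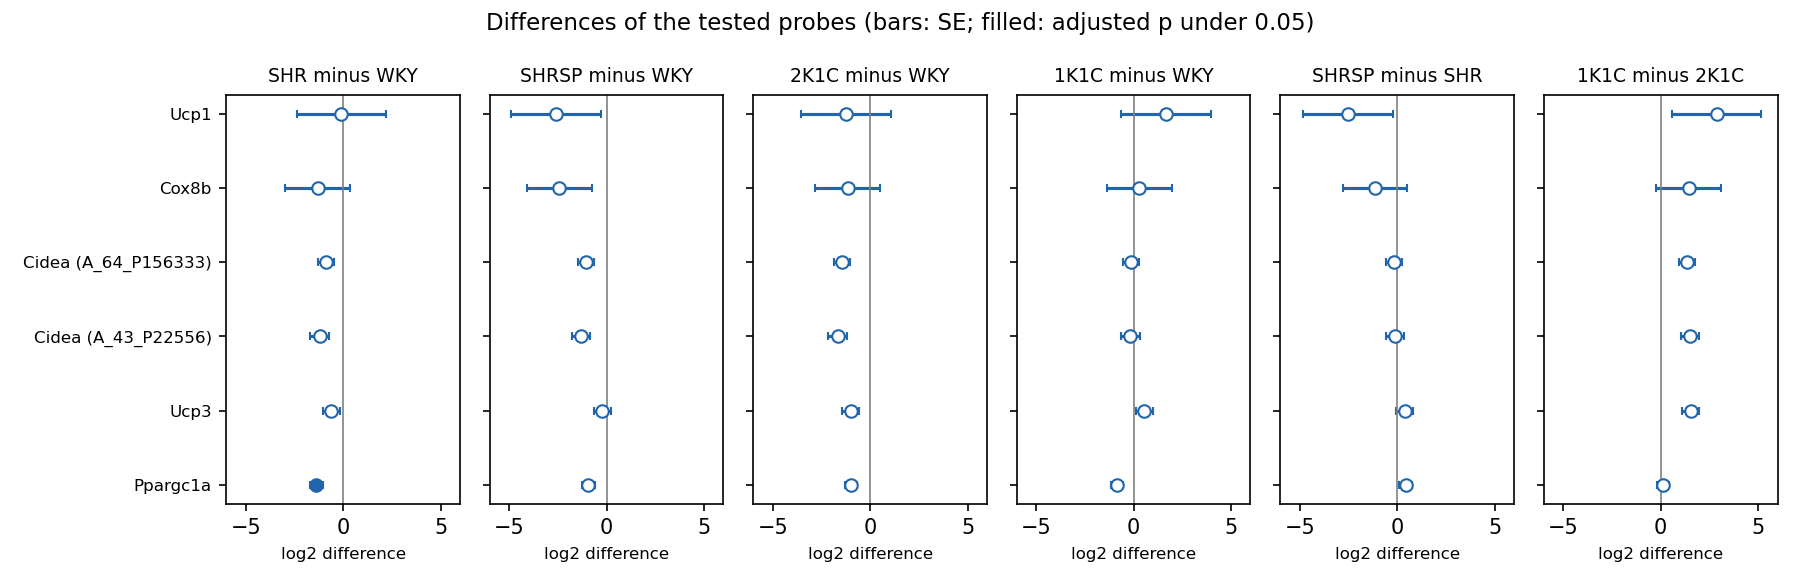
Log2 difference (x axis) of the 6 tested probes in each of 6 comparisons; points are limma estimates, bars are SE, and filled points have an adjusted p under 0.05. The only filled point is Ppargc1a in SHR minus WKY, at -1.37, and the bars of Ucp1 and Cox8b reach 2.31 and 1.67 to each side.

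White adipocyte markers were high on the arrays where Ucp3 was high. Of 28 measured of 30 listed, 28 were higher in 1K1C than in 2K1C, with a median difference of 1.45 and none called, and the list mean ran between 3.08 and 4.55 in 1K1C and between 1.93 and 2.86 in 2K1C. Their median difference from untreated WKY was -0.40 in SHRSP, -0.43 in SHR, 0.48 in 1K1C and -0.91 in 2K1C, with 0 called in each. The largest differences of the list were those of Scd and Thrsp, genes of fatty acid synthesis, at 2.03 ± 0.66 and 1.88 ± 0.49 in 1K1C against 2K1C (adjusted p = 0.101 and 0.0770). Across 20 arrays, Ucp3 followed the mean of the white adipocyte list (r = 0.977, rho = 0.973, permutation p = 1e-05 each, the smallest possible, adjusted p = 0.00015 over 15 relations). Its r was 0.968 without the 2 farthest arrays, 0.991 within slide 2 and 0.942 within slide 3.

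The relation of Cidea to the white adipocyte list differed with the arrays that entered: r was 0.635 and rho 0.725 over 20 arrays (permutation p = 0.00261 and 0.00047, adjusted 0.0108 and 0.00352), and r was 0.973 without the 2 farthest arrays, 1K1C replicate 2 and untreated WKY replicate 1. Within slide 2 it was -0.11, and within slide 3 0.959. Ucp1 did not follow that list (r = -0.10, rho = -0.14, permutation p = 0.698 and 0.551) and neither did Cox8b (r = -0.16, rho = -0.20, permutation p = 0.519 and 0.384). Within slide 2, r was -0.53 for Ucp1 and -0.61 for Cox8b, and within slide 3 it was -0.20 and -0.29; without untreated WKY replicate 1 and 1K1C replicate 3 it was 0.02 and -0.10. Smooth muscle markers ran the other way: all 10 had a lower mean in 1K1C than in 2K1C, with a median difference of -1.57 and none called, and the list mean ran between -0.17 and 3.23 in 1K1C and between 2.58 and 4.17 in 2K1C. That mean correlated with Ucp3 at -0.72 (rho = -0.65, permutation p = 0.00019 and 0.00234, adjusted 0.00142 and 0.00877; -0.58 without the 2 farthest arrays, -0.66 and -0.72 within slides 2 and 3). With Cidea it correlated at -0.64 (rho = -0.67, permutation p = 0.00289 and 0.00176, adjusted 0.0108 and 0.00877; -0.71 without the 2 farthest arrays, -0.34 and -0.77 within slides 2 and 3). The part of the amounts of white adipocyte and smooth muscle RNA in the group differences of Cidea and Ucp3 was not tested.

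**Figure D3:**
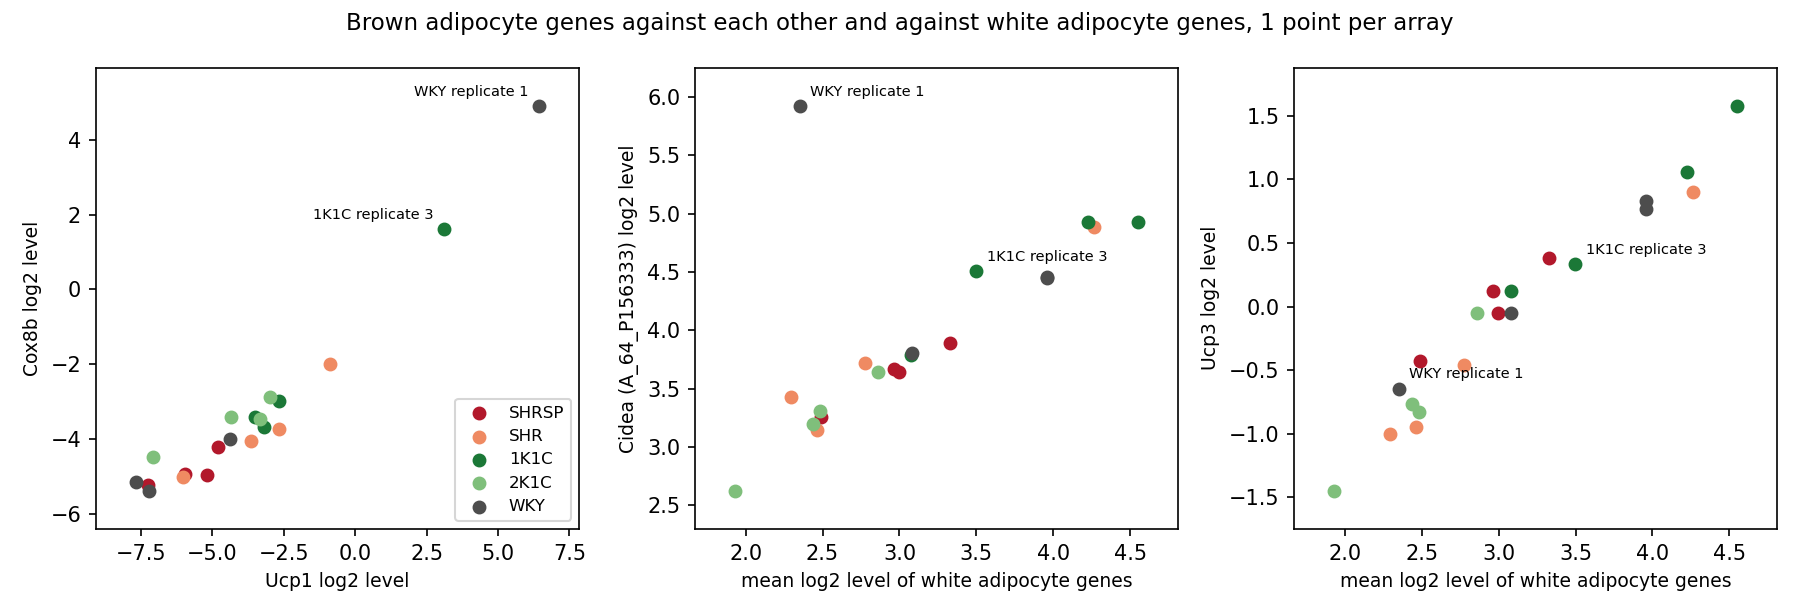
Each point is 1 of 20 arrays, coloured by group, on log2 level axes: Cox8b against Ucp1 (left), and Cidea (middle) and Ucp3 (right) against the mean level of 28 white adipocyte genes. Untreated WKY replicate 1 lies at 6.43 for Ucp1 and at 2.35 for the white adipocyte mean, above the other arrays for Cidea and among them for Ucp3.

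Of 72 further genes of the thermogenic pathway (adrenergic receptors and cyclic AMP signalling, transcription factors, fatty acid use, mitochondrial enzymes), 63 were measured. The only call was Gatm, which makes the creatine precursor guanidinoacetate: it fell in SHRSP by 2.03 on the log2 scale (SE 0.30, adjusted p = 0.000708) and in SHR by 1.70 (SE 0.30, adjusted p = 0.00416). Its level was -3.97, -3.98, -4.47 and -4.04 in SHRSP, -3.59, -3.96, -3.74 and -3.87 in SHR and -2.91, -1.72, -1.93 and -1.81 in untreated WKY, and neither strain overlapped with WKY. That 1 call among 63 genes stands beside 2.4% of all probes called in SHRSP and 1.72% in SHR. Groups did not overlap for 11.4% and 6.16% of all probes. The call is therefore given for Gatm and not as a result on the pathway. Gatm stayed called in all 18 other settings tried for each of these comparisons. Over the 63 genes, the median difference from untreated WKY was -0.33 in SHRSP (11 above 0), -0.36 in SHR (10 above 0), 0.16 in 1K1C (44 above 0) and -0.44 in 2K1C (13 above 0), with no other call.

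The receptor, transcription factor and transport genes of the pathway are given by their values, chosen after these were seen. Adrb3, the beta-3 adrenergic receptor of adipocytes, differed by 1.66 ± 0.53 in 1K1C against 2K1C (adjusted p = 0.0939), and Pparg, the transcription factor of adipocyte differentiation, by 1.77 ± 0.45 (0.0763). Cpt1b, which carries fatty acids into mitochondria, was at 3.54 in untreated WKY replicate 1, against 0.93 to 1.73 on the other WKY arrays, and its differences were -1.40 ± 0.47 in SHR (0.159) and -1.74 ± 0.47 in 2K1C (0.104). Adrb3 in untreated WKY replicate 1 was the lowest of its group, at 1.89 against 3.27 to 4.26. Of the 63 pathway genes, 27 were highest of the WKY arrays in that replicate, 42.9%, beside 30.3% of all probes, and in 1K1C replicate 3, 5 of 63 were highest of the 1K1C arrays, 7.94%, beside 15.6%.

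All 9 measured neuron markers had a lower mean in SHRSP, SHR, 1K1C and 2K1C than in untreated WKY. Their median differences were -2.43, -2.81, -2.36 and -1.75, beside 0.00, 0.02, 0.10 and 0.04 over all tested probes. All 9 were well above background on each untreated WKY array, while each other group held an array with 8 of 9. Some markers may therefore have passed the filter only through untreated WKY. Prph and Gap43, genes of peripheral and growing axons, were called lower in SHRSP by 3.51 and 3.02 (adjusted p = 0.0344 and 0.0273) and in SHR by 3.50 and 2.97 (0.0440 and 0.0384) on the log2 scale. Those 2 calls among 9 genes stand beside 2.4% of all probes called in SHRSP and 1.72% in SHR. Neither gene overlapped between these strains and WKY, beside 11.4% and 6.16% of all probes. Without untreated WKY replicate 1 and 1K1C replicate 3, Prph and Gap43 were not called, and they were called in only 7 to 9 of the 18 other settings. The differences without those 2 arrays were -2.58 and -2.14 in SHRSP (adjusted p = 0.0996 and 0.0583) and -2.56 and -2.09 in SHR (0.122 and 0.0822). The neuron list mean ran between -1.64 and -1.19 in SHRSP, -2.39 and -1.08 in SHR, -2.08 and -1.38 in 1K1C, -1.98 and 1.57 in 2K1C, and -1.57 and 4.77 in untreated WKY. Over the 20 arrays it correlated with Ppargc1a at 0.337 (rho = 0.11, permutation p = 0.139 and 0.640, adjusted 0.232 and 0.730), at 0.193 without untreated WKY replicates 2 and 3, the 2 farthest arrays, at 0.302 within slide 2 and at -0.13 within slide 3.

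**Figure D4:**
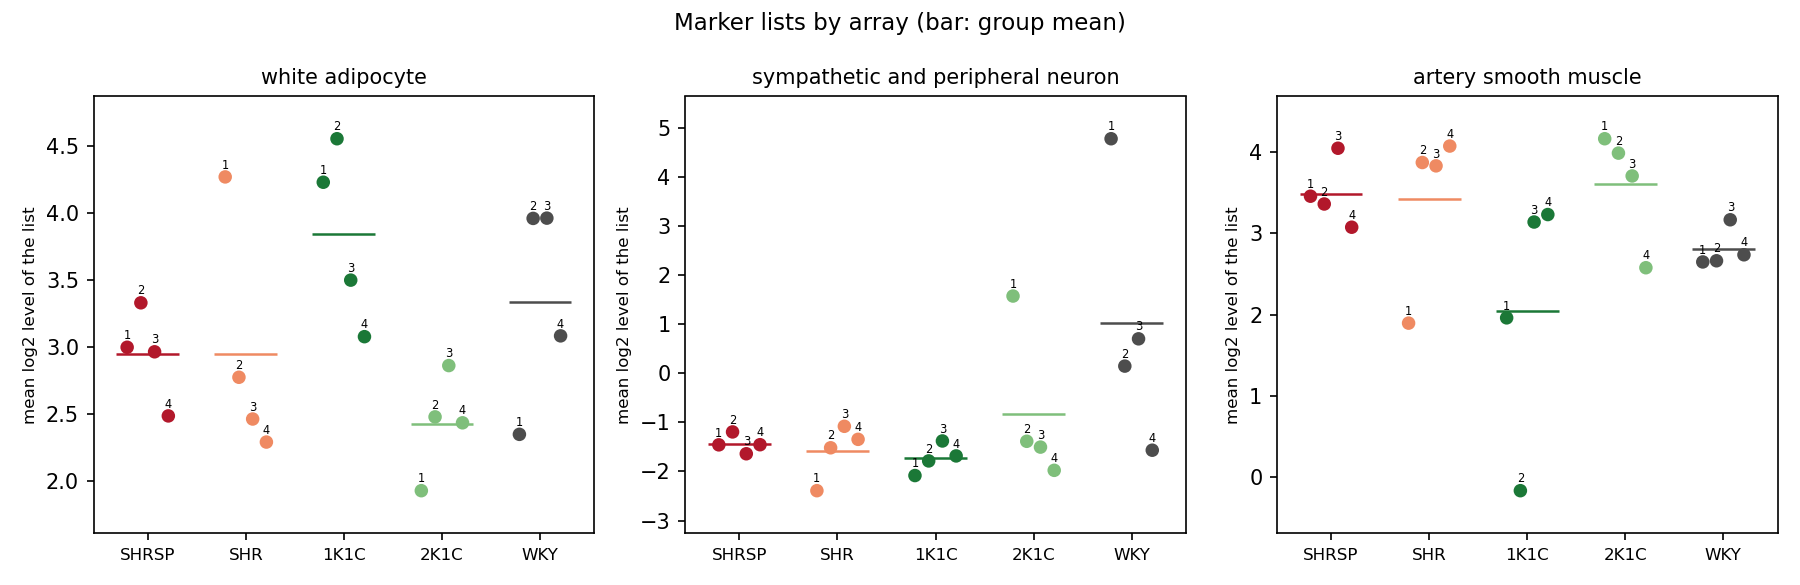
Mean log2 level of the measured genes of 3 marker lists on each of 20 arrays, by group; points are arrays numbered by replicate and bars are group means of 4. Untreated WKY replicate 1 is the lowest WKY array for 28 white adipocyte genes (2.35) and the highest for 9 neuron genes (4.77), and 1K1C replicate 2 is the lowest for 10 smooth muscle genes (-0.17).

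Genes whose level over the 20 arrays was most like that of a member were taken from 11520 named genes, by Pearson's r as a description. For Ucp1 they were Acyp1 (0.822), Nipsnap3b (0.800), Elp6 (0.794), Aimp2 (0.784) and Dcun1d5 (0.782), all less like it than Cox8b. Without untreated WKY replicate 1 and 1K1C replicate 3 the list for Ucp1 began with Hspb9 (0.743), Rpl7 (0.723) and Rps4x (0.711). For Cox8b they were Nipsnap3b (0.883), Aimp2 (0.838) and Dtd1 (0.830). For Cidea they were Cpt1b (0.974), Etfb (0.953) and Acot13 (0.951), which act in fatty acid use, and without those 2 arrays Pla2g16, Adipoq (0.988 each) and Pxmp2 (0.987). For Ucp3 they were Fah (0.985), Pdk1 and Psat1 (0.979 each), and for Ppargc1a they were Maob (0.866), Hpca (0.843) and Oas1e (0.831). These correlations share the groups and slides of the arrays.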

How the data were processed

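Total RNA of 20 samples was measured on 1-colour Agilent arrays. Per the submitters' processing notes, signal intensities were extracted with Agilent Feature Extraction 10.7.3.1, and the processed signal intensity is background-subtracted on a linear scale, per the file headers. The deposited value table held the same signal intensities (largest relative difference 0.0; array medians 59.7 to 133.5), so its scale is linear, without centring, and a single channel has no direction. Probe positions are those of the array design (rn4).

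Control spots (4259) and the 301 to 684 outlier spots per array were left out; saturation was not seen. Repeated spots of 1 probe were averaged on the log2 scale after the array's 75th percentile (574.5 to 1193) was subtracted. A probe counted as well above background on an array where most of its spots were. Groups were taken from the sample titles and compared with limma 3.58.1 (R 4.3.3) in 1 fit of the 5 groups over 18899 probes, with Benjamini-Hochberg adjustment and a call at 0.05. Correlations used 100000 permutations (scipy 1.17.1). The limma fit was tested on simulated data with known differences and a normal spread. The number of arrays limits the precision. The labels say biological replicates but not how animals were sampled, so p-values measure the spread between these samples.

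The 10 genes and the marker lists were chosen with earlier results of these data known. All members are named whatever their values. From the lists, at most the 4 called genes with the smallest adjusted p are named, or, for the pathway and white adipocyte lists without a call, the 2 largest differences; by likeness, up to 5 genes for Ucp1 and 3 for the others. Adrb3, Pparg, Cpt1b, Wisp2, Slc6a2, Th and Npy fall outside this rule and were chosen after their values were seen. Replicate numbers are shared between groups in the titles, but did not pair the samples: same-numbered samples of different groups had correlated deviations of -0.564 to 0.631 (40 pairs, median -0.0191, 14 over 0.1). Alternatives were quantile and median scaling, normexp (offset 50), the deposited values, no filter, 1 probe per gene, fewer groups, array weights, a replicate block, leaving out each array and, chosen after seeing the data, leaving out 2 arrays.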

Additional observations from a re-analysis of the deposited data

Results flagged for a closer look

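In 5 of 45 probe-groups of 4 arrays, 1 array lay farther from the rest than Dixon's critical value allows. Chance gives about 1 in 20 for independent values. The probes here share arrays and Ucp1 moved with Cox8b, so the 2 shares cannot be compared as a test. Ucp1 was at 3.09 in 1K1C replicate 3, against -3.50 to -2.68 in the other 1K1C arrays. Cox8b was at 1.60 in the same array, and at 4.90 in untreated WKY replicate 1. Ucp1 on that WKY array, at 6.43, was not flagged, with the other WKY arrays between -7.68 and -4.39. Dio2 was at -3.21 in untreated WKY replicate 1, where it was well above background, while the other 3 WKY arrays lay between -7.64 and -7.23. Dio2 was also low, at -6.96, in SHR replicate 2, but none of the 4 SHR arrays had Dio2 well above background, so this value has no firm order.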

How the results depend on the processing

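Of 318 values under other settings, 289 kept their direction and side of the threshold; of 288 with 1 array left out, 256 did; the causes were not tested. The fit weighting arrays moved most: against untreated WKY, it called 3 member probes in SHRSP, 4 in SHR, 1 in 1K1C and 4 in 2K1C. These counts include both Cidea probes in SHRSP, SHR and 2K1C. Of all probes, that fit called 6184, 8521, 567 and 5326 in these groups, and 969 in SHRSP against SHR. It turned Ucp1 to 1.34 (SHR) and 0.73 (2K1C), Cox8b to 0.61 (2K1C), and in 1K1C Ucp3 to -0.0303 and Cidea to 0.0523 and 0.0479; Cidea became 0.28 and 0.16 in SHRSP against SHR, and Ppargc1a -0.16 in 1K1C against 2K1C. In SHR against WKY, members called were 0 with quantile scaling, normexp, deposited values, the 2 groups alone and the replicate block (Ppargc1a adjusted p = 0.0505 with limma), the only member call the block changed; same-numbered samples share only a number. All probes called were 144 (SHR) and 241 (SHRSP) from deposited values and 117 and 184 from the 2 groups alone. In 2K1C they were 0 with median scaling, deposited values, no filter and the 2 groups alone, and 75 with normexp; in 1K1C they were 2 with median scaling, 4 from deposited values and 6 without a filter. Ucp1 in SHR was 0.0181 with median scaling. With normexp, 1K1C gave -0.0497 for Ucp1 and -0.27 for Cox8b; deposited values gave 0.0809 for Cidea in SHRSP against SHR. Leaving out WKY replicate 1 and 1K1C replicate 3 turned Ucp1 (3.13 in SHR, 0.62 in SHRSP, 2.00 in 2K1C), Cox8b (1.14, 0.0039, 1.28) and, in 1K1C, Cidea (0.34, 0.31), and left 1 call of all probes in 2K1C and 2 in 1K1C. With single arrays left out, member probes called ran 0 to 2 (SHR), 0 to 3 (2K1C) and 0 to 3 (1K1C against 2K1C), where the counts of 3 include both Cidea probes. All probes called then ran 148 to 755 (SHR), 201 to 1034 (SHRSP), 0 to 975 (2K1C), 0 to 241 (1K1C), 47 to 64 (SHRSP against SHR) and 0 to 2030 (1K1C against 2K1C). Differences then ran, for Ucp1, -1.57 to 3.13 (SHR), -4.08 to 0.62 (SHRSP) and -2.71 to 2.00 (2K1C), and for Cox8b, -2.29 to 1.14, -3.42 to 0.0039, -2.14 to 1.28 and, in 1K1C, -0.95 to 2.73. Cidea ran -0.50 to 0.34 and -0.40 to 0.30 in 1K1C and -0.33 to 0.34 and -0.40 to 0.18 in SHRSP against SHR, and Ppargc1a -0.0469 to 0.32 in 1K1C against 2K1C. Median differences of the 9 member probes ran -1.15 to -0.16 (SHR), -1.13 to -0.37 (SHRSP), -1.24 to -0.12 (2K1C), -0.19 to 0.30 (1K1C), -0.28 to 0.20 (SHRSP against SHR) and 0.32 to 1.60 (1K1C against 2K1C). A slide block could be fitted only where both groups lie on 1 slide, where it gives the same difference. Background limits Elovl3, Zic1, most Dio2, 6 of 20 Ucp1 and 8 of 20 Ppargc1a levels.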

Other observations

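Of the other lists, 0 genes were called in any of the 6 comparisons by limma: beige markers (6 measured of 10), paralogues of the 10 genes (20 of 31), striated muscle (17 of 23), smooth muscle (10 of 10), endothelium (10 of 10), lymphocyte (7 of 15), macrophage (10 of 11), mesothelium (6 of 10) and pancreas (10 of 12). The mean level of the lymphocyte list was 1.74 in 2K1C replicate 4 and 0.59 in SHRSP replicate 4. All 6 beige markers had a higher mean in 1K1C than in untreated WKY, with a median difference of 0.46, beside 0.10 over all tested probes. In SHRSP, SHR and 2K1C against untreated WKY, 3 were above 0 and 3 below. In 1K1C, 27 of 28 white adipocyte markers (median 0.48) and 9 of 10 macrophage markers (0.38) were higher too. Of the 10 smooth muscle markers, 9 were lower.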
